A study of Mus musculus with 10 samples.

Results

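The 10 genes described here are 4 receptors and 6 ligands of the fibroblast growth factor (FGF) family. They were taken by symbol, Fgfr1, Fgfr2, Fgfr3, Fgfrl1, Fgf1, Fgf2, Fgf7, Fgf10, Fgf18 and Fgf21, and each matched 1 of the 41091 Ensembl gene identifiers counted, through the GENCODE M21 annotation. All 10 passed the filter on low counts. The RNA came from adherent cultures of adult C57BL6 olfactory epithelium, dissociated 9 days after the drug methimazole had destroyed the epithelium and regrowth had begun. Every culture grew on gelatin in a medium with EGF, FGF2 and heparin, and every culture received a lentivirus with a short hairpin RNA. The 4 shCTR libraries (replicates 1, 2, 5 and 6) carried a non-targeting scrambled hairpin, the 3 shCBX7 libraries (1, 2 and 5) a hairpin against Cbx7, and the 3 shCBX8 libraries (1, 2 and 6) a hairpin against Cbx8. CBX7 and CBX8 are subunits of Polycomb repressive complex 1, which helps to keep developmental genes silent. The labels state neither the animals' age beyond adult nor whether replicates came from separate animals or cultures. The p-values therefore measure the spread between these libraries, which may be technical.

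FGFs are secreted proteins that bind receptor tyrosine kinases on the cell surface together with heparan sulfate chains. The bound receptor passes its signal through adaptors such as FRS2 to the RAS-ERK cascade, which in turn induces its own inhibitors. Connective tissue cells typically make Fgf7 and Fgf10 and carry Fgfr1, whereas epithelial cells receive both ligands through a splice form of Fgfr2. FGF2 is a mitogen widely used to grow olfactory and neural progenitors, and the FGF2 protein in the medium adds no reads to the counts.

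Library depth ran from 22763014 to 50463172 gene counts. Levels are CPM, that is, counts relative to the library size after TMM scaling (trimmed mean of M values, which evens out composition between libraries). Cbx8 stood at 10.2 to 15.9 CPM in shCTR and at 4.71 to 5.14 CPM in shCBX8, a fall of 1.31 on the log2 scale (SE 0.22, adjusted p = 0.00416). Cbx7 stood at 5.29 to 17.6 CPM in shCTR and at 3.64 to 13.1 CPM in the libraries labelled shCBX7 (log2 fold change -0.67, SE 0.48, adjusted p = 0.929), so its level did not check that label. Omp, a marker of mature olfactory neurons, was at 0.0890 to 0.604 CPM in all libraries, whereas the basal cell keratin Krt5 ranged from 8.36 to 336 CPM. Omp is 1 of 7 neuron markers listed, and another, Adcy3, stood at 15.7 to 58.0 CPM. Of the 5 tested, Gng13 and Gnal were higher in shCBX8 than in shCTR at an adjusted p under 0.05, beside 17% of all genes. Reads on the strand opposite to olfactory and vomeronasal receptor genes, used here as a measure of background, came to 28.3 to 96.7 CPM in shCTR and to 9.97 to 24.1 CPM in the other libraries, highest in shCTR 1 and 2. Within groups, all 12 pairs of libraries were further apart than read sampling allows (chi-square per degree of freedom 25.5 to 393), and each library counted as 1 replicate.

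The starts of 4 members are printed here, the called receptors Fgfr3 and Fgfrl1 and the ligands Fgf7 and Fgf21. Fgfr1, the third called receptor, is not among them, nor is Fgf2, which came close to a call as Fgf7 and Fgf21 did. CpG-rich starts are the kind of sequence that Polycomb complexes occupy, and the 4 printed starts differ in their number of CG pairs. They are from RefSeq, build GRCm38.p6: the first 200 of the 250 bases before the RefSeq start for Fgfr3 (chr5:33721474-33721673, plus strand, ending where the GENCODE exon begins), and the 250 bases just before the start for Fgfrl1 (chr5:108693979-108694228, plus strand, inside the longer GENCODE gene model but in none of its exons), Fgf7 (chr2:126034408-126034657, plus strand) and Fgf21 (chr7:45615491-45615740, minus strand). Capitals mark each CG in the first 3 sequences, and in Fgf21 a 9-base element.
Fgfr3: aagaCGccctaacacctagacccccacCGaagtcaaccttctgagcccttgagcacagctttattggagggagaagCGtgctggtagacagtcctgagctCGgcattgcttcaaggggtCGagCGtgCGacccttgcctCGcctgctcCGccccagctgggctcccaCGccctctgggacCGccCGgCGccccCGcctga
Fgfrl1: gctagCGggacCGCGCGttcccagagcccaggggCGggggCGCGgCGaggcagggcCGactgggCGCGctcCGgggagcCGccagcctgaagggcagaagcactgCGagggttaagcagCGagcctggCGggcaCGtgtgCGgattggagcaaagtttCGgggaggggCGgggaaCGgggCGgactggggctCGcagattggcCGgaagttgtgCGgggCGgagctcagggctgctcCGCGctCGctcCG
Fgf7: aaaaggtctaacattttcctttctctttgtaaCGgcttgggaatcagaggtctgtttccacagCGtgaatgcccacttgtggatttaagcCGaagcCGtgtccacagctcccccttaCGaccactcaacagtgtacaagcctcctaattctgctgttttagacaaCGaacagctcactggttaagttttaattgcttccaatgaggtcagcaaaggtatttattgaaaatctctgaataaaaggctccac
Fgf21: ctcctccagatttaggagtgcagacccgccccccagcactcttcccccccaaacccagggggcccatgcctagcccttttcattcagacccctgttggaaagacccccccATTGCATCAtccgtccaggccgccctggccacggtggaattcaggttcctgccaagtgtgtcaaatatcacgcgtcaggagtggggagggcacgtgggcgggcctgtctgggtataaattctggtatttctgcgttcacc
Over the 250 bases before the start, Fgfr3 had 19 CG pairs, Fgfrl1 30, Fgf7 6 and Fgf21 9. The median of the 32851 RefSeq mouse promoters in the table was 6. As many CG pairs as Fgfrl1 were held by 5.94% of them, as many as Fgfr3 by 19.7%, and as many as Fgf7 by 50.4%. Of the other members in the table, Fgf18 had 37 pairs, Fgf2 20, Fgf10 8 and Fgfr2 2. Fgfr3, Fgfrl1, Fgf18 and Fgf2 thus had counts of CG pairs well above that median. RNA counts do not show where Polycomb complexes bind, and whether CG pairs and levels are linked was not tested. The element in Fgf21, whose other strand reads TGATGCAAT, starts 140 bases before the gene start (position -140) and has the letters of a C/EBP-ATF response element, a site type of amino acid stress genes. Searched on both strands, these letters occur in 55 of the 32851 promoters (0.167%) and in 1 of the 8 members in the table. The element was looked for after the levels were seen, and a match of letters is not a bound site.

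**Figure D1:**
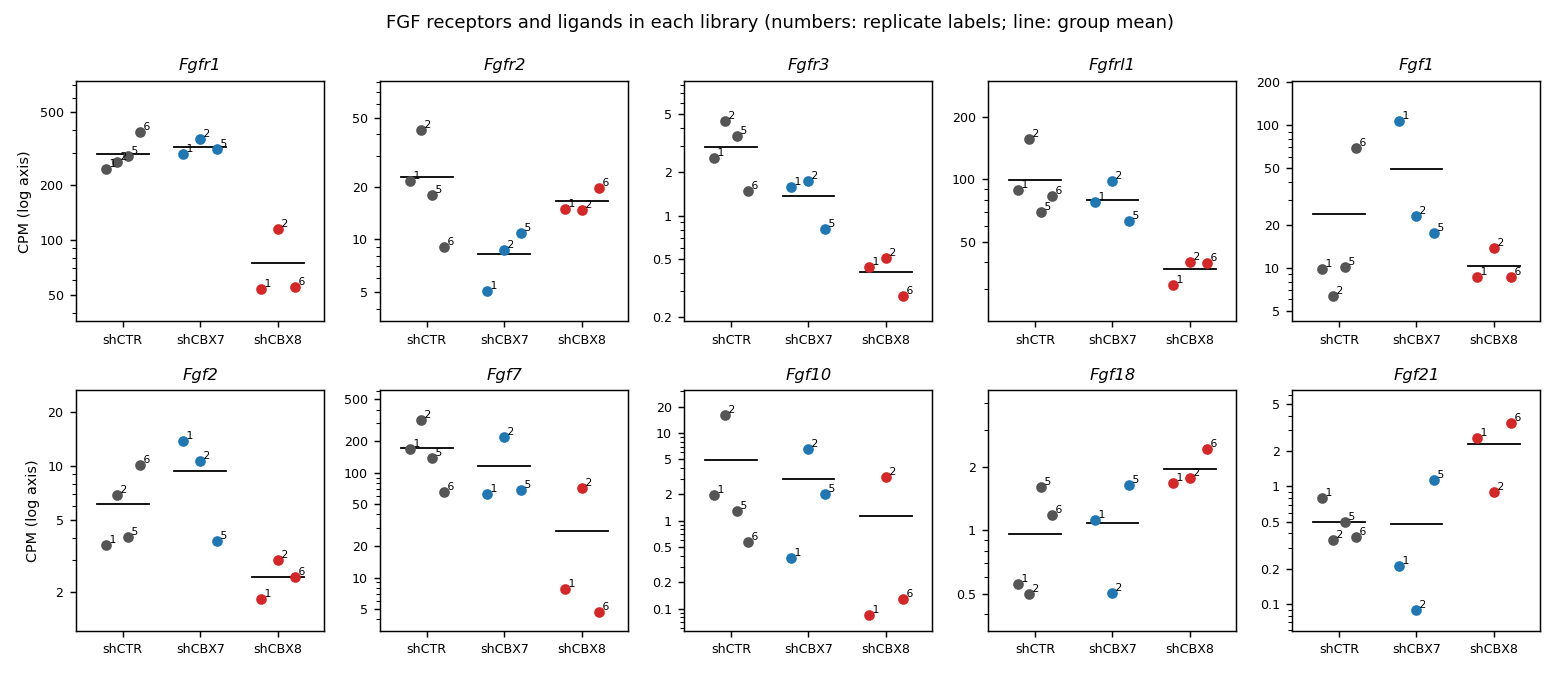
Level of each FGF gene in each library in CPM on a log axis, with 1 point per library, its replicate number beside it and a line at the group mean. Fgfr1, Fgfr3, Fgfrl1 and Fgf2 sit lower in all 3 shCBX8 libraries than in every other library, and Fgf18 sits higher by a small gap. The library shCBX8 2 stands above shCBX8 1 and 6 in Fgfr1, Fgf7 and Fgf10.

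In shCBX8 the receptors Fgfr1, Fgfr3 and Fgfrl1 fell against shCTR, and no member was called higher. Fgfr1, the main FGF receptor of connective tissue and of many progenitor cells, was 3.98-fold lower. Fgfr3, a receptor of cartilage and epithelium present here at a few CPM, was 7.24-fold lower. Fgfrl1, a receptor-like protein without a kinase domain, was 2.68-fold lower. These 3 are the members with an adjusted p under 0.05 in edgeR's quasi-likelihood test with Benjamini-Hochberg adjustment over 16669 genes. Of all genes tested 32.9% passed in this comparison, 17% higher and 15.9% lower, and no share particular to the FGF genes is read from 3 of 10. The median log2 fold change of the 10 members was -1.39, beside -0.01 over all genes and 1.14 over the 7 other FGF genes tested. The members and the other genes listed were chosen with earlier results of these data known. These medians therefore describe the genes listed and test nothing.

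Fgfr1 lies at chr8:25513654-25575718 (mm10, plus strand). It stood at 243, 265, 286 and 389 CPM in shCTR 1, 2, 5 and 6, at 296, 357 and 315 CPM in shCBX7 1, 2 and 5, and at 53.7, 114 and 55.2 CPM in shCBX8 1, 2 and 6. The shCBX8 libraries did not overlap the others, and shCBX8 2 was the highest of them. The log2 fold change against shCTR was -1.99 (SE 0.30, 95% interval -2.66 to -1.33, adjusted p = 0.00277). Fgfr1 passed in all 22 alternative settings, at values from -2.90 to -1.80.

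Fgfr3 (chr5:33721674-33737068, plus strand) stood at 2.49, 4.45, 3.52 and 1.47 CPM in the shCTR libraries, at 1.58, 1.72 and 0.808 CPM in shCBX7, and at 0.440, 0.511 and 0.279 CPM in shCBX8. The shCBX8 values rest on 21, 17 and 13 reads and lie below all others. In the fit shCBX8 came to a log2 fold change of -2.86 against shCTR (SE 0.48, 95% interval -3.93 to -1.78, adjusted p = 0.00425).

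Fgfrl1 (chr5:108692382-108706924, plus strand) stood at 88.8, 156, 70.1 and 83.3 CPM in the shCTR libraries, at 77.7, 97.9 and 63.0 CPM in shCBX7, and at 31.3, 40.0 and 39.9 CPM in shCBX8. The shCBX8 values lie close together and below all others, while shCTR 2 is the highest library. Against shCTR the log2 fold change was -1.42 (SE 0.28, 95% interval -2.05 to -0.79, adjusted p = 0.00716). With the receptor antisense level as a covariate, which itself differs between the groups, Fgfr3 gave -2.28 (adjusted p = 0.0965) and Fgfrl1 -1.16 (adjusted p = 0.139), and neither passed.

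Fgfr2 (chr7:130162451-133123350, minus strand) is the receptor of epithelia for Fgf7 and Fgf10. It stood at 21.8, 42.6, 17.9 and 9.09 CPM in the shCTR libraries, at 5.07, 8.73 and 11.0 CPM in shCBX7, and at 15.0, 14.7 and 19.8 CPM in shCBX8. The shCBX8 values lie inside the wide shCTR range and above all shCBX7 values. The log2 fold change against shCTR was -0.47 (95% interval -1.50 to 0.56, adjusted p = 0.456) in shCBX8, and the 95% interval of shCBX8 against shCBX7 was -0.11 to 2.11 (adjusted p = 0.151). The gene model in GENCODE spans other genes on the same strand, among them Ate1 and Ctbp2, and counts per gene do not separate the splice forms that bind different ligands.

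Expressed per length as RPKM (CPM divided by the exon length in kilobases), the 4 kinase receptors Fgfr1 to Fgfr4 summed to 27.1 to 40.5 RPKM in shCTR, 30.7 to 37.2 in shCBX7 and 6.97 to 13.1 in shCBX8. Fgfr1 made up 84.8 to 97.3% of this sum in shCTR, 96.4 to 97.7% in shCBX7 and 73.6 to 88.5% in shCBX8. Fgfr2 made up 2.17 to 13.0%, 1.60 to 3.21% and 10.8 to 25.2%. Fgfr1 was thus the leading kinase receptor in every library, with its smallest shares in shCBX8 1 and 6. These shares are a description without a test, and the Fgfr2 share is largest where Fgfr1 fell.

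**Figure D2:**
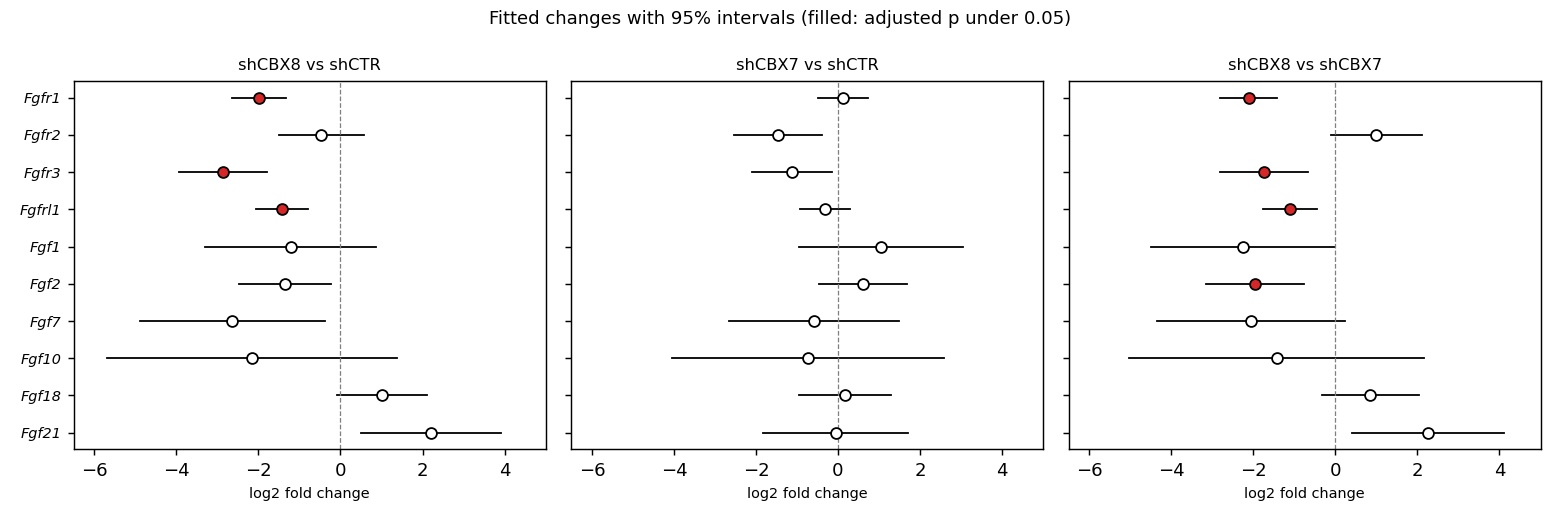
Fitted log2 fold change of each FGF gene with its 95% interval in the 3 comparisons, filled red where the adjusted p is under 0.05. Fgfr1, Fgfr3 and Fgfrl1 are filled and below 0 on both panels with shCBX8, Fgf2 on the panel against shCBX7 alone, and no gene is filled for shCBX7 against shCTR.

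Among the ligands, none passed in shCBX8 against shCTR in the main fit, which did not pair libraries by replicate number. With the replicate number as a block, Fgf2, Fgf7, Fgf10, Fgf18 and Fgf21 passed, but the numbers did not meet the rule set for pairing. Fgf7 and Fgf10, the connective tissue ligands for epithelial Fgfr2, were lowest in shCBX8 1 and 6 but not in shCBX8 2. Fgf2 was lower and Fgf18 and Fgf21 higher in every shCBX8 library than in every shCTR library. Groups that do not overlap were found for 42.4% of all genes in this comparison (22.9% higher, 19.5% lower), and for 6 of the 10 members, 4 of them lower.

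Fgf7 (keratinocyte growth factor, chr2:126034658-126091185, plus strand) stood at 169, 320, 138 and 66.1 CPM in the shCTR libraries, at 62.7, 217 and 68.0 CPM in shCBX7, and at 7.87, 71.1 and 4.66 CPM in shCBX8. Only shCBX8 2 reaches the shCTR range, and shCTR 2 and shCBX7 2 are the highest libraries of their groups. Against shCTR this gave a log2 fold change of -2.64 (SE 1.01, 95% interval -4.90 to -0.38, adjusted p = 0.0699). Without shCBX8 2 it was -4.79 (adjusted p = 0.00447), and DESeq2 with all libraries gave -2.65 (adjusted p = 0.00806). Fam227b overlaps the gene on the other strand, where 2 to 20 reads were counted per library.

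Fgf10 (chr13:118669791-118792115, plus strand) stood at 1.98, 16.1, 1.28 and 0.575 CPM in the shCTR libraries, at 0.379, 6.53 and 2.04 CPM in shCBX7, and at 0.0838, 3.15 and 0.129 CPM in shCBX8. In each group the library numbered 2 is the highest, and the groups overlap. The log2 fold change against shCTR was -2.16 (95% interval -5.69 to 1.37, adjusted p = 0.311). It was -0.24 without shCTR 2 and -5.49 (adjusted p = 0.0518) without shCBX8 2, so its size depends on the libraries numbered 2.

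Fgf2 (chr3:37348346-37410108, plus strand), the ligand also supplied in the medium, stood at 3.64, 6.91, 4.02 and 10.2 CPM in the shCTR libraries, at 13.9, 10.6 and 3.85 CPM in shCBX7, and at 1.82, 3.00 and 2.43 CPM in shCBX8. The shCBX8 values lie below all others. The log2 fold change against shCTR was -1.36 (SE 0.50, 95% interval -2.49 to -0.23, adjusted p = 0.0629). It passed in 6 of the 22 alternatives, among them DESeq2 (adjusted p = 0.0211), subtraction of forward-strand counts (-2.25, adjusted p = 0.0257) and omission of shCBX7 5 (adjusted p = 0.0348). Nudt6 and an antisense RNA overlap Fgf2 on the other strand, with 38 to 60 reads there in shCBX8 beside 14 to 33 in the other libraries.

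Fgf1 (chr18:38838673-38929472, minus strand), which binds all FGF receptors, stood at 9.81, 6.31, 10.1 and 69.5 CPM in the shCTR libraries, at 107, 22.9 and 17.7 CPM in shCBX7, and at 8.63, 13.8 and 8.62 CPM in shCBX8. The groups overlap, with shCTR 6 far above the other shCTR libraries and shCBX7 1 above the other shCBX7 libraries. In shCBX8 the log2 fold change was -1.22 (95% interval -3.30 to 0.87, adjusted p = 0.335), and 0.24 without shCTR 6. With the receptor antisense covariate it was -3.59 (adjusted p = 0.0216).

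Fgf21 (chr7:45613886-45615490, minus strand), a hormone-like FGF induced by metabolic stress, stood at 0.791, 0.350, 0.498 and 0.374 CPM in the shCTR libraries, at 0.210, 0.0890 and 1.14 CPM in shCBX7, and at 2.60, 0.901 and 3.44 CPM in shCBX8. All shCBX8 values lie above the shCTR values, and shCBX7 5 above shCBX8 2. They rest on 124, 30 and 160 reads in shCBX8 and on 7 to 20 in shCTR. The log2 fold change against shCTR was 2.20 (SE 0.76, 95% interval 0.49 to 3.90, adjusted p = 0.0512). It passed in 9 of the 22 alternatives, with DESeq2 (adjusted p = 0.0154), without shCBX8 2 (2.58, adjusted p = 0.031) and without shCBX7 5 (adjusted p = 0.0162) among them. Klb, the co-receptor through which FGF21 acts, was at 0 to 0.322 CPM in all libraries and was not tested.

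Fgf18 (chr11:33117430-33147400, minus strand), a ligand with a preference for Fgfr3, stood at 0.554, 0.501, 1.60 and 1.18 CPM in the shCTR libraries, at 1.12, 0.505 and 1.64 CPM in shCBX7, and at 1.68, 1.77 and 2.43 CPM in shCBX8. The shCBX8 values are the highest of all, by a small gap. Against shCTR the log2 fold change was 1.02 (95% interval -0.09 to 2.12, adjusted p = 0.137).

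In the libraries labelled shCBX7, no member passed against shCTR in edgeR's test, and 0% of all 16669 genes did. At an unadjusted p under 0.05 stood 975 genes, 806 of them lower, and DESeq2 passed 91 genes, none of them a member. Fgfr2 and Fgfr3 had the smallest unadjusted p, 0.0123 and 0.0295, at log2 fold changes of -1.47 (95% interval -2.54 to -0.40, adjusted p = 0.584) and -1.12 (-2.10 to -0.14, adjusted p = 0.745). The values of both groups overlap for all 10 members, and for all but 5.42% of all genes (1.7% higher, 3.73% lower). Fgfr1, the gene with the largest count among the receptors, gave 0.12 (-0.50 to 0.74), a narrower interval than those of the ligands. Fgf10 gave -0.73 (-4.04 to 2.58), an interval too wide to bound a change.

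Compared directly, shCBX8 lay below shCBX7 in Fgfr1, Fgfr3, Fgfrl1 and Fgf2. The log2 fold changes were -2.12 (SE 0.31, adjusted p = 0.00343), -1.74 (SE 0.48, adjusted p = 0.0268), -1.10 (SE 0.29, adjusted p = 0.0227) and -1.97 (SE 0.53, adjusted p = 0.0246). Of all genes, 28.6% passed here, 15.3% higher and 13.3% lower. Both groups did not overlap in 7 of the 10 members, 5 lower (these 4 and Fgf1) and 2 higher (Fgfr2 and Fgf18), as in 48.2% of all genes (25.6% higher, 22.6% lower). Both comparisons use the same shCBX8 libraries, so they are not independent. Only Fgfr1 passed with each library left out. Fgfr3, Fgfrl1 and Fgf2 lost their call without shCBX8 1 (adjusted p = 0.0834, 0.0901 and 0.0967), without shCBX8 6 (0.102, 0.067 and 0.0833) and without shCBX7 2 (0.069, 0.0626 and 0.058), and Fgfr3 and Fgf2 also without shCBX7 1 (0.0688 and 0.0772). Fgf7 gave -2.06 and passed without shCBX8 2 (-4.22, adjusted p = 0.00709).

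By group means, the order of the levels per length changed little at its top. In shCTR, Fgf7 (53.3 ± 33.0 RPKM, SD, n = 4), Fgfrl1 (35.7 ± 13.8) and Fgfr1 (30.0 ± 6.54) led with overlapping ranges, apart from Fgf1 next (4.38 ± 5.57). Fgfr2 followed at 2.21 ± 1.38 RPKM, and the 5 others, down to Fgfr3 at 0.417 ± 0.180, overlapped their neighbours. In shCBX7 the same 3 genes led, Fgf7 (35.7 ± 27.0 RPKM, n = 3), Fgfr1 (32.7 ± 3.16) and Fgfrl1 (28.6 ± 6.30). In shCBX8 they led by mean at lower levels, Fgfrl1 (13.3 ± 1.79 RPKM, n = 3), Fgf7 (8.59 ± 11.5) and Fgfr1 (7.54 ± 3.50). The place of Fgf7 there rests on shCBX8 2 alone. In shCBX8 1 and 6, Fgf7 lay below Fgf21 per length. By mean, Fgf21 came next in shCBX8 at 2.43 ± 1.36 RPKM, from the ninth place of shCTR. Its range overlapped that of Fgf1, the gene after it.

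Among the lists of cell type markers, those of fibroblasts and epithelia had the largest median changes in shCBX8 against shCTR. Of 16 fibroblast markers 7 fell in shCBX8 against shCTR and none rose (median log2 fold change -3.28), beside 15.9% lower of all genes. Their summed level was 6834 to 36417 CPM in shCTR, 6338 to 20394 CPM in shCBX7, and 389, 3592 and 276 CPM in shCBX8 1, 2 and 6. Of 11 epithelial markers 8 rose (median 2.86), beside 17% higher of all genes, with sums of 168 to 2065, 112 to 2267 and 4632 to 12582 CPM. Against shCBX7, 2 of the 16 fibroblast markers were called lower and 2 of the 11 epithelial markers higher. Of all genes, 13.3% were lower and 15.3% higher there. No marker of either list was at 0 in any library. The collagen gene Col3a1 stood at 28.8, 951 and 21.0 CPM in shCBX8 1, 2 and 6 and at 2453 to 10007 CPM in shCTR. It is not among the 7 fibroblast markers that passed (adjusted p = 0.0599). Of 8 basal cell markers Trp63 alone passed, higher. Of 8 smooth muscle and pericyte markers 1 rose, with sums of 590 to 1852 CPM in shCTR and 1785 to 5573 CPM in shCBX8. Of 6 immune cell markers tested 3 rose, Cd68, Aif1 and Cd14, beside 17% higher of all genes. Ptprc (log2 fold change 0.14, adjusted p = 0.914) and Csf1r (-0.88, adjusted p = 0.563) did not pass. The library shCBX8 2, highest of its group in fibroblast markers, was also highest in Fgfr1, Fgfr3, Fgfrl1, Fgf1, Fgf2, Fgf7 and Fgf10. It was lowest of its group in Fgfr2 and Fgf21. The library shCTR 2 held the largest fibroblast sum and was highest of all in Fgfr2, Fgfr3, Fgfrl1, Fgf7 and Fgf10. It was lowest of all in Fgf1. In bulk RNA, fewer cells of a type and less RNA per cell cannot be told apart, and the part of the cell mixture in the FGF values was not tested.

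**Figure D3:**
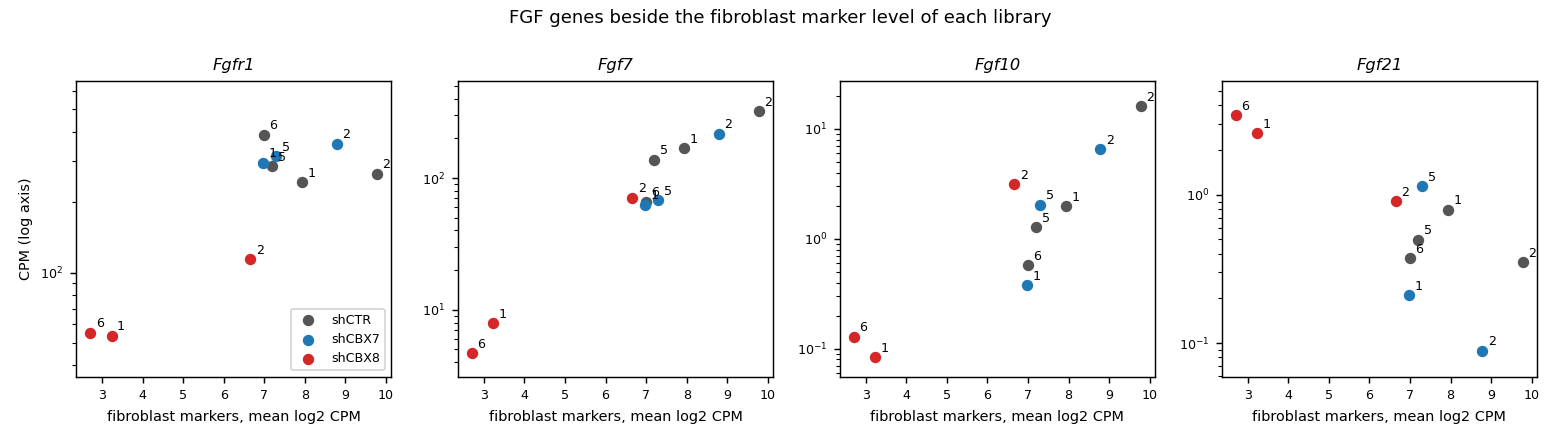
CPM of 4 FGF genes on a log axis against the mean log2 CPM of the 16 fibroblast markers, 1 point per library with its replicate number. Fgf7 and Fgf10 order the libraries much as the markers do within and across groups, Fgfr1 separates shCBX8 from the rest, and Fgf21 is highest in shCBX8 1 and 6, where the markers are lowest.

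Pearson correlations of log2 CPM over the 10 libraries describe which levels ran together, and the libraries share their groups. Fgf7 and Fgf10 gave r = 0.88, Fgfr3 and Fgfrl1 0.88, and Fgf21 ran against Fgf2 at -0.90. Fgf1 ran against Fgfr2 at -0.88. Among 12814 protein-coding genes of at least 1 CPM, the nearest to Fgfr1 were Anapc1 (r = 0.996) and Steap3 (0.995), to Fgf7 Mrgprf (0.994) and Adcy3 (0.988), and to Fgf10 Antxr1 (0.988) and AW551984 (0.980). Nfe2l3 (0.989) and Ptpn3 (0.983) were nearest to Fgf21, Pygo1 (0.986) and Kctd11 (0.984) to Fgfrl1, and Tasp1 (0.973) and Best1 (0.967) to Fgfr3. For Fgf2 they were Pigk (0.981) and Szrd1 (0.978), for Fgf18 Mrps2 (0.979) and Zfp296 (0.979), and for Fgf1 Clta (0.977) and Ccdc124 (0.970). Fgfr2 had the loosest neighbours, Akap7 (0.959) and Prdm11 (0.948).

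Of the 17 other FGF ligands and receptors, 7 were tested. Of these, 2 rose and 1 fell in shCBX8 against shCTR, beside 17% higher and 15.9% lower of all genes. Fgf9 and Fgf16, close relatives that epithelia secrete, rose in shCBX8, and Fgf11, an FGF that stays inside the cell, fell. Fgf16 stood at 0.435, 0.451, 0.747 and 1.01 CPM in the shCTR libraries, at 0.568, 0.0594 and 1.02 CPM in shCBX7, and at 9.25, 3.03 and 9.90 CPM in shCBX8 (log2 fold change against shCTR 3.46, SE 0.73, adjusted p = 0.00913). Fgf9 stood at 1.82, 0.651, 0.925 and 1.35 CPM in shCTR, at 0.505, 0.148 and 1.45 CPM in shCBX7, and at 9.82, 3.00 and 10.6 CPM in shCBX8 (2.71, SE 0.69, adjusted p = 0.0182). All shCBX8 libraries are above all others in both genes, with shCBX8 2 the lowest of the group. Fgf11 stood at 4.75, 9.16, 3.06 and 1.47 CPM in shCTR, at 1.18, 4.07 and 1.21 CPM in shCBX7, and at 0.482, 0.631 and 0.666 CPM in shCBX8 (-2.95, SE 0.71, adjusted p = 0.0143), below all others. Fgf5 gave 2.08 (adjusted p = 0.0968). The calls of Fgf9 and Fgf11 were lost without shCBX8 1 (adjusted p = 0.0646 and 0.0648) or shCBX8 6 (0.0671 and 0.0554). Without shCTR 1 and 2 together, Fgf9 (2.75, adjusted p = 0.0816), Fgf16 (3.05, 0.072) and Fgf11 (-1.94, 0.0742) did not pass. With the receptor antisense covariate the values were 3.30 (0.0938), 3.20 (0.121) and -0.92 (0.571).

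**Figure D4:**
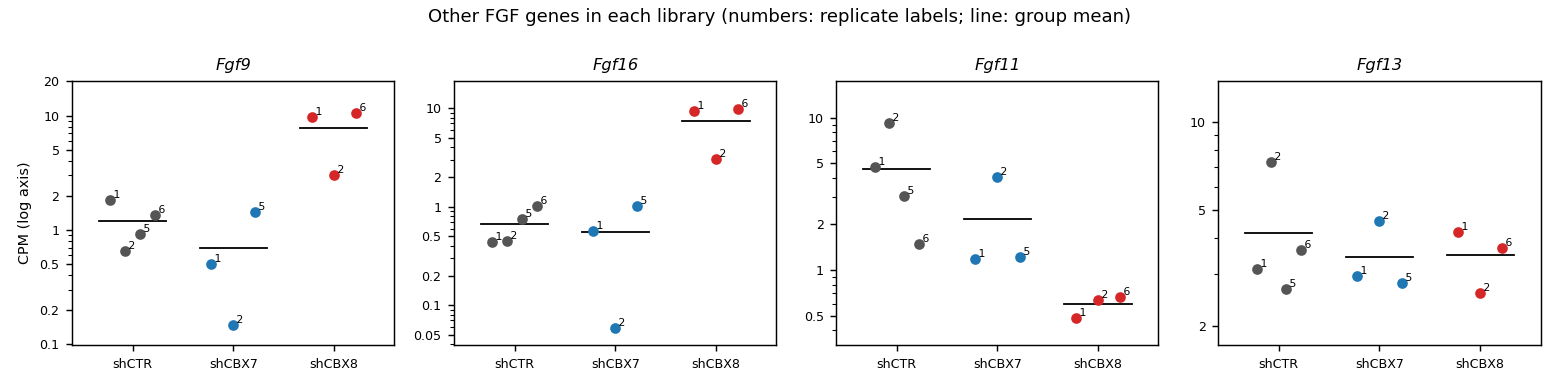
Level of 4 FGF genes outside the 10 members in each library in CPM on a log axis, with replicate numbers and a line at the group mean. Fgf9 and Fgf16 are higher and Fgf11 is lower in all 3 shCBX8 libraries than in every shCTR library, and Fgf13, plotted beside them, gave -0.25 (adjusted p = 0.639).

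FGF co-receptors and binding proteins carry or present the ligands. Of 16 tested 3 fell in shCBX8 against shCTR, 2 rose and 11 did not pass (median -0.66), beside 15.9% lower and 17% higher of all genes. With 1 library left out the counts were 2 to 7 lower (7 without shCBX8 2, and 2 without shCTR 2, shCBX8 1 or shCBX8 6) and 0 to 1 higher (0 without shCTR 1, shCTR 5 or shCBX8 1, and 1 without any other). Sdc2, a heparan sulfate carrier of the syndecan family, stood at 390, 529, 320 and 415 CPM in shCTR and at 63.9, 113 and 60.4 CPM in shCBX8 (log2 fold change -2.39, SE 0.31, adjusted p = 0.00188). Gpc6, a carrier of the glypican family, stood at 45.5, 38.4, 30.1 and 38.8 CPM in shCTR and at 8.96, 10.9 and 9.45 CPM in shCBX8 (-1.97, SE 0.16, adjusted p = 0.000751). Neither gene overlapped between the groups, and both passed in all 22 alternatives. Flrt2, a membrane protein that can bind FGF receptors, gave -1.80 (adjusted p = 0.0298). Fgfbp3, which releases FGFs from the matrix, gave 0.64 (adjusted p = 0.0297). The other gene that rose was the syndecan Sdc4. Flrt2 lost its call without shCTR 2, shCBX8 1 or shCBX8 6 (adjusted p = 0.0572, 0.108 and 0.098), and Fgfbp3 lost its own on omission of any 1 of shCTR 1, 2, 5 and shCBX8 1, 2 (adjusted p = 0.054 to 0.102). Neither passed without shCTR 1 and 2 together (0.119 and 0.105) or with the receptor antisense covariate (0.139 and 0.234).

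Of 18 enzymes that build or edit heparan sulfate, 5 fell, 2 rose and 11 did not pass (median -0.62), a share near that of all genes called (32.9%). With 1 library left out, 2 to 8 were lower (8 without shCBX8 2, 2 without shCBX8 1 or 6, and 3 without shCTR 5 or 6) and 0 to 2 higher (0 without shCBX8 1 or 6, and 1 without shCTR 2, 5 or 6, shCBX7 2 or shCBX8 2). Hs2st1, the 2-O-sulfotransferase, stood at 130, 95.9, 128 and 121 CPM in shCTR and at 63.3, 76.9 and 50.5 CPM in shCBX8 (-0.90, SE 0.17, adjusted p = 0.0057), and passed in all 22 alternatives. The chain polymerase Ext1 gave -0.88 (adjusted p = 0.0166) and the scarce Ndst4, which starts sulfation, -1.78 (adjusted p = 0.00834). The other genes that fell were Ndst1 and Hs6st1. The sulfotransferases Hs3st1 (1.08, adjusted p = 0.0194) and Hs6st2 rose. Without shCBX8 1 or shCBX8 6, Ext1 (adjusted p = 0.0756 and 0.0731) and Hs3st1 (0.0754 and 0.0876) did not pass. Without shCTR 1 and 2 together they gave 0.0609 and 0.0898, and with the receptor antisense covariate Ext1, Hs3st1 and Ndst4 gave 0.112, 0.0698 and 0.101.

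The adaptors and the RAS-ERK kinases kept a median of -0.02 over 23 genes, of which 6 rose and 3 fell, beside 32.9% of all genes called. No omission of a library kept all 6: 0 to 5 were higher (0 without shCBX8 1 or 6, 1 without shCTR 1 or 5, 2 without shCTR 2, 3 without shCBX7 1 or 5, 4 without shCBX7 2 or shCBX8 2) and 0 to 3 lower (0 without shCBX8 1, 1 without shCBX8 6, shCTR 1 or shCTR 2, and 2 without shCTR 5). The docking proteins Gab1 (1.22, adjusted p = 0.018) and Gab2 (1.21, adjusted p = 0.0259) and the adaptor Crk (0.59, adjusted p = 0.028) rose, as did Frs3, Crkl and Map2k1. The ERK1 gene Mapk3 fell (-0.69, adjusted p = 0.0152), as did the adaptor Shc1. Frs2, the docking protein of FGF receptors, did not pass. Gab1, Gab2, Crk and Mapk3 did not pass without shCBX8 1 (adjusted p = 0.0672, 0.0774, 0.110 and 0.073) or shCBX8 6 (0.0796, 0.0708, 0.0745 and 0.0731). Without shCTR 1, Gab1 (0.0505), Gab2 (0.0663) and Crk (0.0723) did not pass, nor Gab2 without shCTR 5 (0.0546), nor Crk without shCTR 2 (0.0734) or 5 (0.0636). With the receptor antisense covariate, Gab2 came to 0.20 (adjusted p = 0.722), Crk to 0.32 (0.453) and Gab1 to 1.59 (0.0785), and without shCTR 1 and 2 together to 0.75 (0.103), 0.46 (0.175) and 1.17 (0.0969), with Mapk3 at -0.75 (0.0555).

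Of 19 feedback inhibitors and target genes of FGF-ERK signalling tested, 3 fell, 1 rose and 15 did not pass (median -0.06), beside 15.9% lower and 17% higher of all genes. With 1 library left out, 1 to 4 were lower (4 without shCBX8 2, 1 without shCBX8 1 or 6) and 0 to 1 higher. Il17rd (Sef), a membrane inhibitor of FGF receptors, stood at 148, 57.3, 59.3 and 62.4 CPM in shCTR and at 30.3, 27.0 and 30.2 CPM in shCBX8 (-1.49, SE 0.34, adjusted p = 0.0123). The groups do not overlap, and shCTR 1 is far above its group. With the receptor antisense covariate Il17rd came to -0.81 (adjusted p = 0.311) and did not pass. The immediate early gene Egr1 gave -2.43 (adjusted p = 0.0288), the ETS factor Etv1 -1.75 (adjusted p = 0.0475) and the inhibitor Spred3 0.73 (adjusted p = 0.0481). The phosphatase Dusp6 stood at 181, 112, 368 and 569 CPM in shCTR and at 313, 495 and 351 CPM in shCBX8 (log2 fold change 0.33, 95% interval -0.92 to 1.58, adjusted p = 0.671), and Spry2 gave -0.06 (adjusted p = 0.844). Egr1 and Etv1 did not pass without shCBX8 1 (adjusted p = 0.103 and 0.148) or shCBX8 6 (0.108 and 0.147), and Egr1 without shCTR 2 (0.0548). Etv1 also did not pass without shCTR 1, 5 or 6 or any shCBX7 library (adjusted p = 0.0553 to 0.0846), nor Spred3 without any 1 of the libraries other than shCTR 6 (0.0559 to 0.146). None of Egr1, Etv1 and Spred3 passed without shCTR 1 and 2 together (0.0962, 0.0792 and 0.225), nor Egr1 (0.133) and Spred3 (0.988) with the covariate. In shCBX7 against shCTR, 0 genes of these 5 lists passed.

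**Figure D5:**
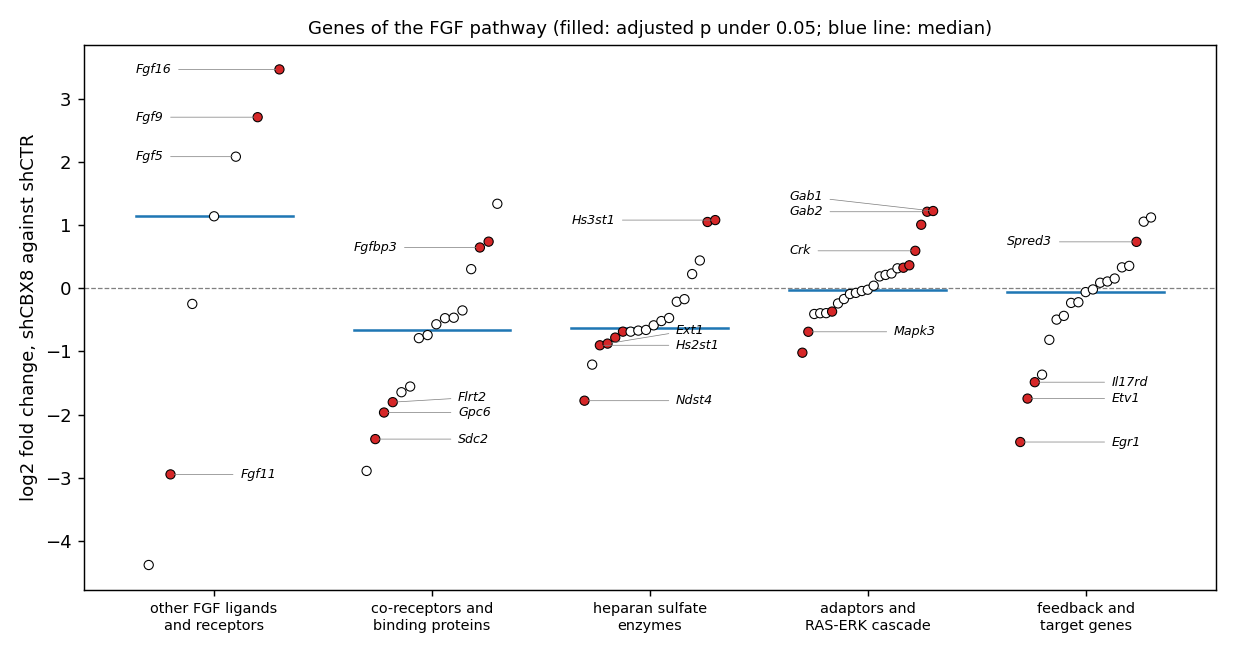
Log2 fold change in shCBX8 against shCTR of every tested gene in 5 lists of the FGF pathway, filled red where the adjusted p is under 0.05, with a blue line at each list's median. The medians are 1.14, -0.66, -0.62, -0.02 and -0.06 from left to right, and filled points lie on both sides of 0 in every list.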

How the data were processed

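Total RNA from 10 libraries was sequenced after TruSeq stranded preparation from 500 ng of RNA. Per the submitters' processing notes, bcl2fastq 2.17, Trim Galore 0.4.3 and STAR 2.5.0a were used with mm10. No label names the gene annotation behind the counts. The authors deposited raw read counts per Ensembl gene in STAR's layout, unnormalized. The reverse-strand counts were used, since the forward strand held 3.42 to 10.4% of stranded gene counts. Reads unmapped (5.03 to 21.7%, highest in shCTR), mapping to several places (15.4 to 22.1%), in no gene (12.5 to 23.6%) or ambiguous (0.290 to 0.637%) did not enter library sizes or tests.

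GENCODE M21 (GRCm38) gave symbols and coordinates for 40217 of 41091 identifiers. The exon length used for RPKM is the union of a gene's exons. Genes were filtered with filterByExpr (minimum count 10), scaled with TMM factors, then tested with edgeR 4.0.16 (R 4.3.3), by the quasi-likelihood test over all 10 libraries with group as the factor. Adjustment was by Benjamini-Hochberg over 16669 genes, at a threshold of 0.05. The scripts were tested on simulated data. Counting from the estimate to either end, the 95% interval was 0.61 log2 units in the median gene for shCBX8 and 0.60 for shCBX7 against shCTR. For log2 CPM in correlations the prior count was 2.

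The 10 members and all lists were chosen with earlier results of these data known. From each pathway list the 4 genes with the smallest p in shCBX8 against shCTR are named with values. Other genes named complete a count, check a label or were picked after their values were seen. Spry3 had no unique identifier and was left out. Of the genes counted in the pathway lists, 1 is not reported here. The alternatives were RLE scaling or plain library sizes, an unfiltered table or a filter at a mean of 1 CPM, DESeq2 1.42.0, unstranded counts, subtraction of forward-strand counts, a fit of only the 2 groups, a block for the replicate number, omission of single libraries and of shCTR 1 and 2 together, the receptor antisense level as a covariate, and a threshold of 0.01. Replicate numbers were taken as pairing the samples only where every same-number correlation was over 0.1, which was not met.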

Additional observations from a re-analysis of the deposited data

Results flagged for a closer look

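In 4 of the 30 genes looked at (the 10 members and 20 named pathway genes), 1 of the 4 shCTR libraries stood apart from the other 3, by a gap to its neighbour that took up most of the group's range, past Dixon's critical value. That critical value flags about 1 in 20 groups by chance only where levels are normally distributed. The rule was applied to CPM and not to log values, and all 4 flagged levels are high ones. The 4 of 30 genes therefore cannot be held against a rate of 1 in 20. Fgf1 was at 69.5 CPM in shCTR 6, beside 10.1 CPM in the next library. Fgf10 was at 16.1 CPM in shCTR 2, beside 1.98 CPM in the next, and Flrt2 was at 436 CPM in the same library, beside 269 CPM. Il17rd was at 148 CPM in shCTR 1, beside 62.4 CPM. The library shCTR 2 also held the largest sum of fibroblast markers, 36417 CPM, and shCTR 1 the highest receptor antisense level, 96.7 CPM. Whether these values and the levels that stand apart are connected was not tested.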

How the results depend on the processing

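Fgfr1 in shCBX8 against shCTR passed in all 22 alternatives, and Fgfr3 and Fgfrl1 in 21, the exception being the receptor antisense covariate. The count of members passing was 3. It was 6 with DESeq2, 5 with only the 2 groups compared, 8 with the replicate number as a block, and 3 to 5 with 1 library left out (5 without shCBX7 5 or shCBX8 2). The count of genes was 5478. It was 2409 without shCTR 1 and 2, 2273 with the covariate, 1844 at a threshold of 0.01, and 2261 to 6193 with 1 library left out (2261 without shCBX8 1, 2279 without shCBX8 6). For shCBX7 against shCTR, 0 genes became 91 with DESeq2 and 0 to 41 with 1 library left out (41 without shCTR 6). For shCBX8 against shCBX7, 4762 genes became 1349 at 0.01 and 1784 to 6005 with 1 library left out (2730 and 2900 without shCBX7 1 and 2, 1847 and 1784 without shCBX8 1 and 6), and 4 members became 1 at 0.01 and 1 to 6 with 1 library left out. Against shCTR in shCBX8, Fgfr2 turned to 1.22 with the covariate and to 0.27 without shCTR 1 and 2, Fgf10 to 0.23 without shCTR 1 and 2, Fgf1 to 0.24 without shCTR 6 (-1.56 to 0.24 with 1 library left out), and Spred3 to -0.0092 with the covariate. Against shCTR in shCBX7, where no member passed, the covariate turned Fgf1 to -2.71, Fgf10 to 1.01, Fgf18 to -0.73, Fgf2 to -1.07, Fgf21 to 1.93, Fgfr1 to -1.01, Fgfr2 to 0.69 and Fgfrl1 to 0.019. Without shCTR 1 and 2, Fgf10 turned to 1.68, Fgf18 to -0.35, Fgf21 to 0.14, Fgf7 to 0.19, Fgfr1 to -0.065 and Fgfrl1 to 0.055. Fgf21 turned to 0.016 with library size only and 0.0064 without a filter, and Fgf18 to -0.025 with unstranded counts. With 1 library left out, these ranged over -0.23 to 2.49 for Fgf1, -2.01 to 1.23 for Fgf10, -0.23 to 0.52 for Fgf18 and -1.67 to 0.44 for Fgf21. The cause of these shifts was not tested. Libraries with the same number correlated at -0.08 to 0.69 in their deviations from the group means, others at -0.51 to 0.47. Of 8 same-number pairs 6 were over 0.1, and 6 of 10 libraries were closest to one with their own number, a hint in the data that falls short of the rule that every pair be over 0.1. With the block, 8 members passed in shCBX8 against shCTR, Fgf2 (adjusted p = 0.0247), Fgf7 (0.0029), Fgf10 (0.0232), Fgf18 (0.022) and Fgf21 (0.0254) beside the 3 receptors, and 6 against shCBX7. Low counts limit Fgfr3, Fgf10, Fgf18 and Fgf21.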
